A study of Mus musculus with 24 samples.

Results

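Genes of insulin and insulin-like growth factor (IGF) signalling were followed through the cortex of mice with a peripheral nerve injury. The 9 genes were the ligand Igf1, the receptors Insr and Igf1r, the adaptor proteins Irs1 and Irs2, the receptor inhibitor Grb14, the binding proteins Igfbp4 and Igfbp5, and the protease Ide. Each of the 9 symbols matched 1 of the 33364 rows of the count tables, and all 9 passed the low-count filter in every comparison, with at least 204 reads in every library. The genes had been picked by function and by values of the sham libraries. Ide, Irs2, Igf1 and Igfbp5 had stood out there between the mPFC and the ACC or between the sexes, and Irs1 between the regions in males. Differences among sham libraries are therefore given as a description without a test. It is assumed, not known, that the SNI libraries took no part in that choice, and the p-values on the SNI libraries rest on this. Earlier results of these data were known when the members and the gene lists used below were chosen.

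Tissue of the medial prefrontal cortex (mPFC) and of the anterior cingulate cortex (ACC) came from female and male mice, labelled C57BL/6 and 3 months old, 2 weeks after spared nerve injury (SNI) or a sham operation. In SNI, the common peroneal and sural branches of the sciatic nerve are cut and the tibial branch is spared. The design gave 8 groups (sham and SNI for each sex and region) of 3 RNA-seq libraries, 24 in all, and each library held a pool of 4 to 5 animals, so the spread between libraries was a spread between pools. The tissue was punched from thick slices and held all its cell types, so fewer cells of a type and less RNA per cell cannot be told apart. Sex and region were each also a separate deposited table, and sequencing batches were not given in the labels.

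The libraries held 23853845 to 32864391 reads on genes, and 3 reads corresponded to 0.0913 to 0.126 CPM (reads scaled to a common library size). The sex labels matched Xist (13914 to 20710 reads in female and 1 to 79 in male libraries) and Ddx3y (0 to 7 and 1071 to 1680 reads). Replicates differed by more than counting error, with a chi-square per gene of 2.59 to 18.5 between libraries of 1 group, and no pair looked like copies of 1 library. Replicate 3 of the female sham mPFC and replicate 3 of the male sham ACC stood apart from the rest of their groups. The summed level of 5 choroid plexus markers was 974 CPM in replicate 1 of the female sham ACC and 83.3 CPM in replicate 2 of the male SNI mPFC, and at most 10.99 CPM in every other library. Markers of excitatory neurons, the main cells of these cortical areas, summed to 4881 to 6073 CPM.

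Insulin and IGF1 bind related receptor tyrosine kinases. The activated receptors phosphorylate IRS adaptor proteins, which recruit PI3 kinase and so activate AKT, and AKT holds FoxO transcription factors out of the nucleus. In the brain this pathway is known for its part in neuronal survival, synaptic plasticity and glucose handling. IGF binding proteins hold IGF1 outside the cell and release it when proteases cut them, and insulin-degrading enzyme clears insulin and amyloid beta peptides.

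Both adaptor genes carried, in the bases before their RefSeq start (GRCm38.p6), the letters TGTTTTG, the core of the insulin response element that FoxO factors bind, and CACGTG, an E-box. The 125 bases before each start are printed 5′ to 3′ on the gene's own strand because these are the promoters of the adaptors that carry the signal and because both hold the pair of motifs next to each other. Capitals mark the motifs.

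Irs1, chr1:82291440-82291564, minus strand: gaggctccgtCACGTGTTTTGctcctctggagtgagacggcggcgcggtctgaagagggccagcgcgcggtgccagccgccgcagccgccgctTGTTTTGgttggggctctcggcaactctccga

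Irs2, chr8:11008930-11009054, minus strand: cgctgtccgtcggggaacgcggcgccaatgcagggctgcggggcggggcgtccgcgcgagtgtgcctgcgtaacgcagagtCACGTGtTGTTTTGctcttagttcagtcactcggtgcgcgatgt

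In Irs1 the E-box began 115 bases before the start and overlapped a TGTTTTG that began at 111, and another TGTTTTG began at 32. In Irs2 the E-box began 44 bases and TGTTTTG 37 bases before the start. The window of Ide also held a TGTTTTG, which began 102 bases before its RefSeq start, and no CACGTG. The RefSeq starts of Irs1 and Irs2 lie upstream of the GENCODE gene ends, chr1:82291416 and chr8:11008458, by more in Irs2. The RefSeq start of Ide does not match its GENCODE gene end, chr19:37337852, and lies further from it than those of Irs1 and Irs2 from theirs. Its window is therefore not directly before the gene model that was matched to the counts. On either strand of the 250 bases before the start, TGTTTTG was found in 5.56% and CACGTG in 6.02% of 32851 RefSeq windows. Starts of both within 10 bases of each other, a distance chosen after these windows were seen, were found in 7 windows (0.0213%), Irs1 and Irs2 among them. The other FoxO letters searched, GTAAACA, were in 3.17% of windows and in no window of the 8 members that had one. A match of letters is a description and not a binding site.

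Levels of different genes were compared as CPM per kilobase of annotated exon. The binding proteins ranked highest, with a median over the 24 libraries of 24.3 CPM per kilobase for Igfbp4 and 22.6 for Igfbp5. They were followed by the adaptor Irs2 at 17.8, the protease Ide at 7.79, and the receptors Igf1r at 6.29 and Insr at 4.73. The adaptor Irs1 at 2.45, the inhibitor Grb14 at 2.08 and the ligand Igf1 at 1.09 were lowest.

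Per kilobase, Igf1r lay above its ligand Igf1, and Irs2 above Irs1, in every library. Some neighbours in this order were not separated. Igfbp4 lay above Igfbp5 in 19 of 24 libraries, Igfbp5 above Irs2 in 20, Ide above Igf1r in 22 and Irs1 above Grb14 in 21. The ranges did not overlap from Irs2 to Ide, from Igf1r to Insr, from Insr to Irs1 and from Grb14 to Igf1.

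**Figure D1:**
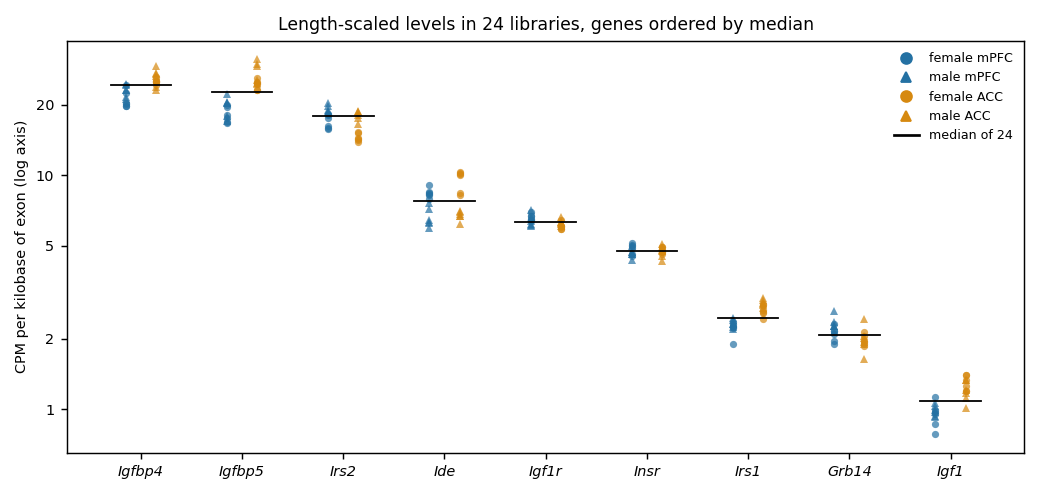
Level of each gene in CPM per kilobase of exon (log axis) in the 24 libraries, with circles for female and triangles for male pools, blue for the mPFC and orange for the ACC, and a bar at the median of 24. The medians run from 24.3 for Igfbp4 to 1.09 for Igf1, and the ACC points of Igfbp5 and Igf1 sit mostly above their mPFC points.

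The first question was whether SNI changed these genes in either region of either sex. None of the 9 genes passed FDR < 0.1 in any of the 4 comparisons of SNI with sham (edgeR quasi-likelihood test, Benjamini-Hochberg). The 36 log2 differences lay between −0.19 and 0.23. Their 95% intervals reached from −0.40 to 0.47, which is a fold of 0.758 to 1.39, so larger changes of message lay outside every interval. The median of the 9 differences was −0.02 in the female mPFC, −0.01 in the female ACC, 0.06 in the male mPFC and −0.01 in the male ACC, against −0.00, −0.00, 0.00 and −0.01 over all tested genes.

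Over all genes, few passed as well. The share of tested genes called was 0.00592% in the female mPFC, 0.024% in the female ACC, 0.494% in the male mPFC and 0.00599% in the male ACC. At an unadjusted p under 0.05 there were 1, 1, 2 and 0 members in the same order, beside 2039 of 16897, 1113 of 16684, 1903 of 16989 and 749 of 16702 genes, and DESeq2 called 0 members in each. The sham libraries that served to pick members enter these comparisons, so those of Ide, Irs2, Irs1, Igf1 and Igfbp5 are not independent of the choice. The SNI and sham libraries did not overlap for 1 of 9 members in the female mPFC, 0 in the female ACC, 3 in the male mPFC and 0 in the male ACC. The same held for 15%, 11.8%, 16.9% and 8.19% of all tested genes.

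**Figure D2:**
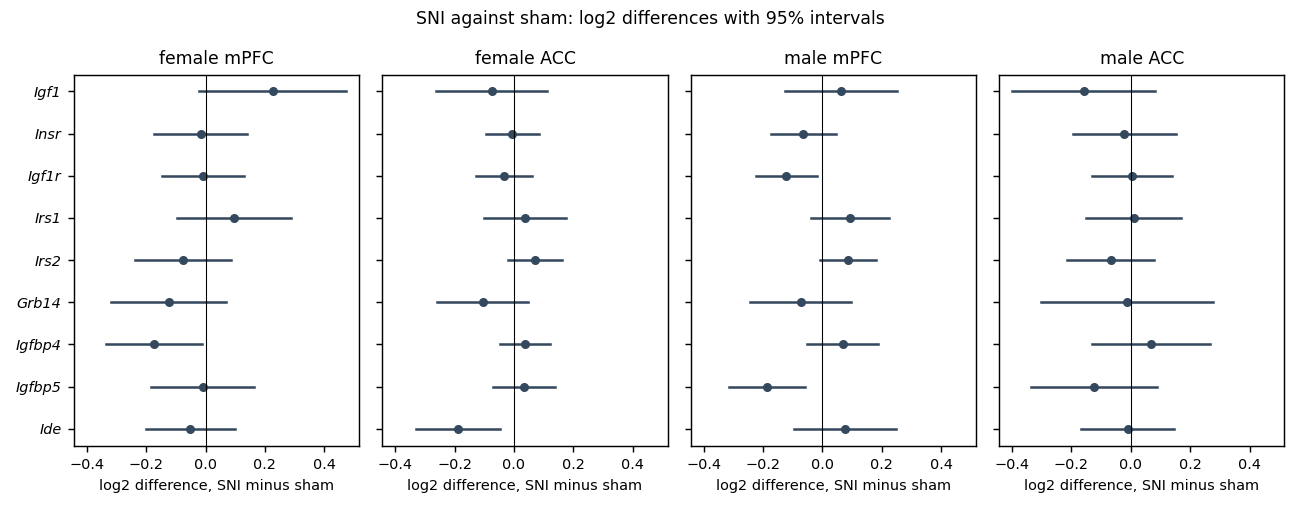
Log2 difference of SNI minus sham for each gene in the 4 combinations of sex and region, with the point at the estimate and the line spanning the 95% interval. All points lie between −0.19 and 0.23, and 4 of the 36 lines do not cross 0.

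The 4 intervals that excluded 0 belonged to Igfbp4 in the female mPFC, Ide in the female ACC, and Igf1r and Igfbp5 in the male mPFC. Igfbp4, a secreted protein that binds IGFs and holds them from the receptor, read 107, 99.1 and 89.7 CPM in the female sham mPFC and 87.2, 87.1 and 88.8 CPM after SNI. All 3 SNI pools lay below all 3 sham pools, and the lowest sham pool lay just above them. The log2 difference was −0.17 (SE 0.07, interval −0.33 to −0.01, edgeR FDR 0.413). Without replicate 3 of the female sham mPFC, which stood apart, it was −0.24 with an edgeR FDR of 0.0442, and 2758 genes were then called instead of 1.

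Ide read 74.9, 77.3 and 76.7 CPM in the female sham ACC and 63.1, 76.0 and 62.0 CPM in the female SNI ACC. Replicates 1 and 3 of the SNI pools were lower than every sham pool, and replicate 2 lay between sham values. The log2 difference was −0.19 (SE 0.06, edgeR FDR 0.635). With no filter on low counts the FDR of Ide was 0.0131, and 398 genes were called instead of 4. The male difference in the ACC was −0.01, and the mPFC showed −0.05 in females and 0.08 in males.

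Igfbp5, a binding protein that attaches to the extracellular matrix, read 122, 124 and 133 CPM in the male sham mPFC and 103, 107 and 122 CPM in the male SNI mPFC. The highest SNI pool reached the lowest sham pool. The log2 difference was −0.19 (SE 0.06, edgeR FDR 0.242). With no filter on low counts the FDR of Igfbp5 was 0.0259, and 596 genes were called instead of 84. Igf1r, the IGF1 receptor, read 119, 110 and 107 CPM in the same sham pools and 102, 104 and 103 CPM after SNI, so the SNI pools were lower without overlap. Its log2 difference was −0.12 (SE 0.05, edgeR FDR 0.351).

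In the same male mPFC libraries the adaptors leaned the other way without passing the test. Irs1 read 20.5, 21.1 and 20.2 CPM in sham and 22.1, 21.1 and 22.5 CPM in SNI pools, and Irs2 read 117, 118 and 118 CPM in sham and 125, 129 and 120 CPM in SNI pools. Both sets of SNI values lay above the sham values, although the closest pools of Irs1 were almost equal. The log2 differences were 0.09 for Irs1 (edgeR FDR 0.599) and 0.09 for Irs2 (edgeR FDR 0.481).

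Oligodendrocyte markers moved with SNI in the mPFC. In males 8 of 10 were called lower after SNI (median log2 difference −0.51), with summed levels of 2034 to 2945 CPM after SNI and 3421 to 3936 CPM in sham. In females all 10 differences were negative (median −0.54) and 0 of 10 were called (edgeR), with sums of 1129 to 2831 and 3007 to 3460 CPM. None of these markers was at 0. Their part in the values of Igfbp4, Igfbp5, Igf1r, Irs1 and Irs2 was not tested.

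The receptors varied little. The 24 values of Igf1r lay between 98.98 and 119 CPM, a span of 1.21-fold. Those of Insr lay between 59.2 and 70.8 CPM, a span of 1.2-fold over all sexes, regions and treatments, and the SNI differences of Insr were −0.02, −0.01, −0.06 and −0.02 on the log2 scale in the female mPFC, female ACC, male mPFC and male ACC. The inhibitor Grb14, an adaptor-like protein that binds activated insulin receptors and blocks their kinase, differed by −0.12, −0.11, −0.07 and −0.01 in the same order.

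With both sexes in 1 model, 0 of 9 genes were called in the mPFC and 0 of 9 in the ACC, and 0% of all tested genes were called in either region (edgeR; 1293 and 961 genes had an unadjusted p under 0.05). No member had an unadjusted p under 0.05, and DESeq2 called 0 members in each region. The furthest from 0 was Igf1 in the mPFC, at a log2 difference of 0.14 (SE 0.07, interval −0.01 to 0.29, edgeR FDR 0.701). In the ACC it was −0.11 (SE 0.07, edgeR FDR 0.814).

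Whether the SNI difference itself depended on sex or region was tested by interaction terms, which called 0 of 9 members and 0% of all tested genes in each of the 4 models (edgeR). The sham libraries that served to pick members enter these models. The terms of Ide, Irs2, Irs1, Igf1 and Igfbp5 are therefore not independent of the choice. Unadjusted p-values under 0.05 were found over all genes for 2791 and 1024 genes for sex in the mPFC and the ACC, and for 1932 and 559 genes for region in females and males. Among the members Igfbp4 alone had such a p, in 2 of the 4 models. Its SNI difference was lower in females than in males by 0.24 in the mPFC (log2 −0.24, SE 0.10, edgeR FDR 0.261), and in females it was lower in the mPFC than in the ACC (log2 −0.21, SE 0.08, edgeR FDR 0.428). DESeq2 called 0 members in each model.

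Whether these 2 values passed FDR < 0.1 turned on 1 library, while their sign did not. Without replicate 3 of the female sham mPFC the interaction of Igfbp4 was −0.31 for sex (edgeR FDR 0.0306) and −0.27 for region (edgeR FDR 0.0337). That of Irs2 was −0.23 for sex (edgeR FDR 0.0565). Female sham mPFC pools that served to pick Irs2 enter this value, so it is not independent of the choice. For region that of Irs2 was −0.21, a value that includes the female sham gap by which Irs2 had been picked. Over all genes the count then went from 0 to 3283 and from 0 to 2070. Leaving out replicate 3 of the male sham ACC raised the count over all genes from 1 to 2305 for SNI in the male ACC and from 0 to 1698 for the interaction with sex in the ACC, and called 0 of the 9 members in either.

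**Figure D3:**
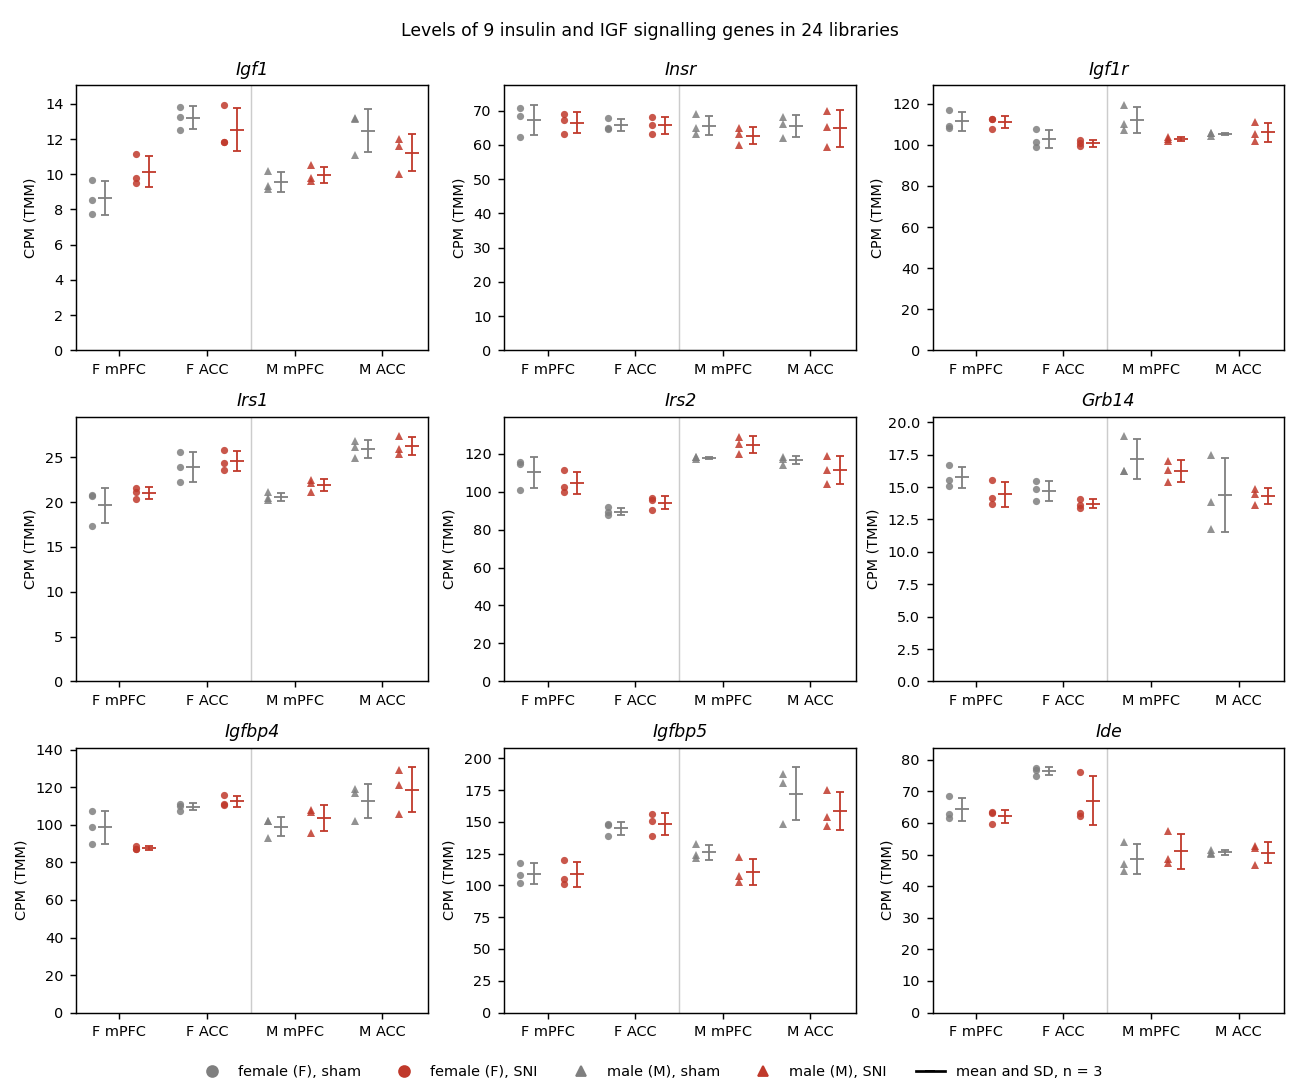
CPM of each gene in the 24 libraries by sex, region and treatment, with circles for female and triangles for male pools, grey for sham and red for SNI, and the mean with its SD (n = 3) beside each group. Among SNI libraries Ide reads 59.6 to 76.0 CPM in females and 46.7 to 57.3 CPM in males, and Igfbp5 139 to 175 CPM in the ACC and 101 to 122 CPM in the mPFC. The grey points had served to pick both genes.

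Among the 9 genes the sexes differed most in the insulin-degrading protease. Ide (ENSMUSG00000056999, chr19:37268743-37337852, minus strand, GRCm38) is autosomal. After SNI its female values were 63.6, 63.0 and 59.6 CPM in the mPFC and 63.1, 76.0 and 62.0 CPM in the ACC. The male values were 57.3, 47.2 and 48.5 CPM in the mPFC and 52.7, 46.7 and 52.1 CPM in the ACC. Every female pool lay above every male pool of its region. In the ACC the log2 difference of females over males was 0.41 (SE 0.08, interval 0.24 to 0.57, 1.33-fold, edgeR FDR 0.00718). In the mPFC it was 0.28 (SE 0.07, edgeR FDR 0.155) and did not pass.

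Sham pools, which had served to pick Ide, read 61.7, 68.5 and 62.7 CPM in the female and 44.9, 47.0 and 54.0 CPM in the male mPFC. In the ACC they read 74.9, 77.3 and 76.7 CPM in females and 50.2, 51.5 and 50.4 CPM in males. The sham log2 differences were 0.41 in the mPFC and 0.59 in the ACC. After SNI the ACC difference was called after leaving out any 1 of the 6 SNI ACC libraries, between 0.30 and 0.46 on the log2 scale.

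Irs2, the adaptor (ENSMUSG00000038894, chr8:10984681-11008458, minus strand), was lower in females after SNI. In the ACC the female pools read 96.8, 95.6 and 90.2 CPM and the male pools 112, 104 and 119 CPM. All female values were below all male values there, with a log2 difference of −0.25 (SE 0.05, interval −0.36 to −0.13, edgeR FDR 0.012). It was called after leaving out any 1 of the 6 libraries. In the mPFC females read 103, 111 and 100 CPM and males 125, 129 and 120 CPM, again apart, at −0.25 (SE 0.06, edgeR FDR 0.118). In the sham ACC the difference was −0.38, with 87.7, 89.0 and 91.6 CPM in females and 114, 117 and 118 CPM in males. In the sham mPFC it was −0.09.

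In all, 2 of 9 members were called between the sexes after SNI in the ACC, beside 23.5% of all tested genes, and 0 of 9 in the mPFC, beside 0.076% of all tested genes (edgeR). The 2 were Ide and Irs2, which had stood out in the sham libraries, so this count is not independent of the choice. In the mPFC 4 members had an unadjusted p under 0.05, namely Ide, Irs2, Igfbp4 and Igf1r, beside 2388 of 17098 genes. DESeq2 called 344 genes and 3 of these members, Ide (FDR 0.0442), Irs2 (FDR 0.00995) and Igfbp4 (FDR 0.0198). Igfbp4 read 87.2, 87.1 and 88.8 CPM in the female and 107, 95.8 and 108 CPM in the male SNI mPFC, without overlap, at −0.24 (SE 0.06, edgeR FDR 0.13). Its sham difference in the mPFC was 0.00. Over the 9 members the median log2 difference came to −0.02 for the mPFC and −0.08 for the ACC, and over all tested genes to 0.01 and −0.00.

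Leaving out 1 library also called Ide in the mPFC, at 0.38 without replicate 1 of the male SNI mPFC (edgeR FDR 0.0895), and Irs2, at −0.30 without replicate 2 of the female SNI mPFC (edgeR FDR 0.0724). Igfbp5 was lower in females in sham, at −0.20 in the mPFC and −0.25 in the ACC. After SNI it was −0.02 (edgeR FDR 0.917) and −0.10 (edgeR FDR 0.329).

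**Figure D4:**
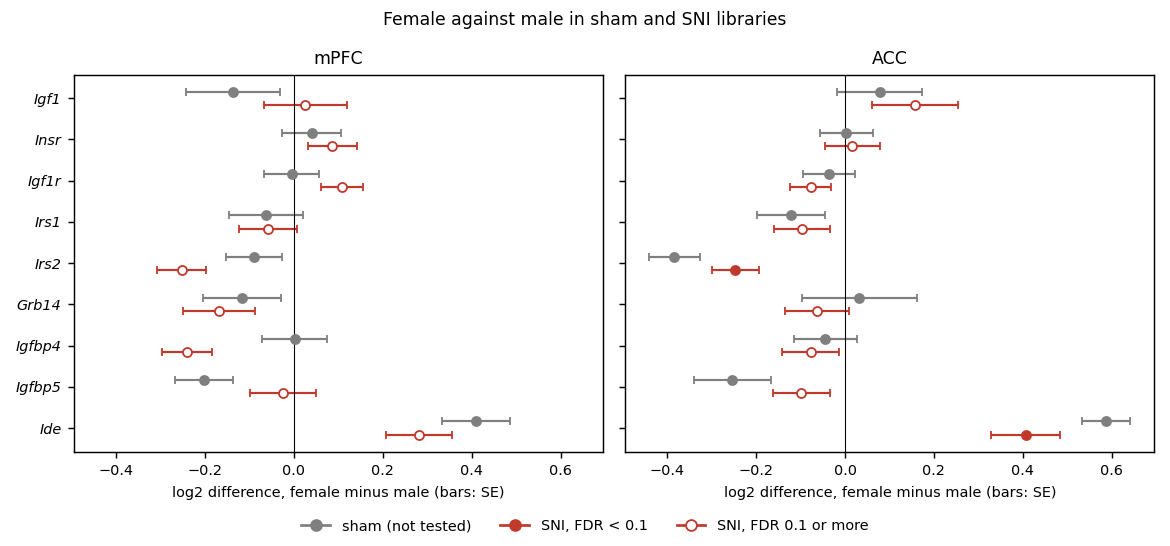
Log2 difference of females minus males for each gene in the mPFC and the ACC, with bars for the SE, grey points for sham (not tested) and red points for SNI (filled where FDR < 0.1, open otherwise). Filled points are Ide at 0.41 and Irs2 at −0.25, both in the ACC.

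Sex and deposited table cannot be told apart, so the sex differences may hold anything that differed between those tables. The cell type markers that differed between the sexes after SNI in the ACC were 1 of 10 oligodendrocyte, 1 of 5 oligodendrocyte precursor, 2 of 7 astrocyte, 2 of 8 microglia, 2 of 7 endothelial and 3 of 7 mural markers, 2 of 5 excitatory, 3 of 6 inhibitory and 1 of 5 striatal neuron markers, and 1 of 2 tested choroid plexus markers, beside 23.5% of all genes. None of 8 meningeal fibroblast markers was called. Their part in the results for Ide and Irs2 was not tested.

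The regions differed in more of the members. After SNI, 6 of 9 genes were called between the mPFC and the ACC in females and 4 of 9 in males, beside 27.6% and 21% of all tested genes (edgeR). Irs1, Irs2, Igf1 and Igfbp5 were among those called and had stood out in the sham libraries, so these shares are not independent of the choice. Igfbp4, Igfbp5 and Irs1 were lower in the mPFC in both sexes, Irs2 was higher in both, and in females Igf1 was lower and Igf1r higher. The median over the 9 members was −0.11 in females and −0.05 in males, against 0.00 over all tested genes of either sex.

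Igfbp5 (ENSMUSG00000026185, chr1:72857932-72874884, minus strand) differed most after SNI. The female SNI pools read 101, 105 and 120 CPM in the mPFC and 151, 139 and 156 CPM in the ACC, and the male SNI pools 103, 107 and 122 CPM in the mPFC and 154, 147 and 175 CPM in the ACC. Each mPFC pool lay below each ACC pool. The log2 difference of the mPFC minus the ACC was −0.44 in females (SE 0.07, interval −0.59 to −0.30, edgeR FDR 0.000501) and −0.52 in males (SE 0.07, interval −0.68 to −0.37, edgeR FDR 0.000385). It was called after leaving out any 1 library.

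In sham pools, which had served to pick Igfbp5, females read 102, 118 and 109 CPM in the mPFC and 147, 139 and 148 CPM in the ACC. Males read 122, 124 and 133 CPM in the mPFC and 188, 149 and 180 CPM in the ACC. The sham differences were −0.40 and −0.44.

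Igfbp4 (ENSMUSG00000017493, chr11:99041244-99054392, plus strand) was lower in the mPFC after SNI. Females read 87.2, 87.1 and 88.8 CPM there and 116, 111 and 111 CPM in the ACC, and males 107, 95.8 and 108 CPM there and 129, 121 and 106 CPM in the ACC. The female pools did not overlap between the regions and the male pools overlapped at 1 ACC value. The log2 difference was −0.36 in females (SE 0.04, edgeR FDR 0.000115), called after leaving out any 1 library. In males it was −0.20 (SE 0.07, edgeR FDR 0.0868), called after 1 of the 6 omissions, with −0.14 and an edgeR FDR of 0.308 without replicate 1 of the male SNI ACC. The sham differences were −0.14 in females and −0.18 in males.

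The adaptors went in opposite directions. Irs1 (ENSMUSG00000055980, chr1:82233101-82291416, minus strand) read 20.3, 21.5 and 21.2 CPM in the female SNI mPFC and 24.4, 23.6 and 25.8 CPM in the female SNI ACC. In males it read 22.1, 21.1 and 22.5 CPM in the SNI mPFC and 25.9, 25.4 and 27.3 CPM in the SNI ACC. The mPFC pools were below the ACC pools in both sexes. The difference was −0.22 in females (SE 0.06, edgeR FDR 0.0294) and −0.26 in males (SE 0.06, edgeR FDR 0.0135). The female call was lost without replicate 3 of the female SNI ACC (−0.19, edgeR FDR 0.119), and the male call was kept in all 6 omissions. The sham differences were −0.27 and −0.32.

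Exons of Irs1 overlap those of Gm9747 on the other strand over 2822 bases, and the strand mode of the counting is not given in the sources used here. Gm9747 held 112 to 179 reads in the female ACC, 18 to 90 in the female mPFC, 34 to 117 in the male ACC and 55 to 94 in the male mPFC, beside 421 to 732 reads for Irs1. Its part in the Irs1 difference was not tested.

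Irs2 was the adaptor with more message in the mPFC. Its female SNI pools read 103, 111 and 100 CPM in the mPFC and 96.8, 95.6 and 90.2 CPM in the ACC, and its male SNI pools 125, 129 and 120 CPM and 112, 104 and 119 CPM. The regions did not overlap in either sex, by narrow gaps. The difference was 0.16 in females (SE 0.05, edgeR FDR 0.0489) and 0.16 in males (SE 0.06, edgeR FDR 0.0783). Each call was kept in 2 of 6 omissions, and the edgeR FDR rose to as much as 0.203 without replicate 3 of the female SNI ACC and 0.291 without replicate 2 of the male SNI mPFC. In sham pools the difference was 0.31 in females and 0.03 in males.

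Igf1 (ENSMUSG00000020053, chr10:87858265-87937042, plus strand), the ligand, read 11.2, 9.80 and 9.51 CPM in the female SNI mPFC and 13.9, 11.8 and 11.9 CPM in the female SNI ACC. The mPFC pools lay below the ACC pools, with a difference of −0.30 (SE 0.10, edgeR FDR 0.0429). The call was lost in 3 of 6 omissions, with −0.22 and an edgeR FDR of 0.205 without replicate 1 of the female SNI ACC, −0.28 (0.12) without replicate 2 and −0.26 (0.133) without replicate 3 of the female SNI mPFC. In the male SNI pools the values were 9.62, 10.5 and 9.80 CPM in the mPFC and 11.6, 10.03 and 12.03 CPM in the ACC. They overlapped, at −0.18 (SE 0.09, edgeR FDR 0.245).

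Sham pools, from which Igf1 was picked, showed a wider gap. Females read 7.77, 8.55 and 9.70 CPM in the mPFC and 13.8, 13.3 and 12.5 CPM in the ACC, and males 9.32, 10.2 and 9.18 CPM and 13.2, 13.2 and 11.1 CPM. The sham differences were −0.60 and −0.37, without overlap in either sex. In the interaction model the SNI difference was higher than the sham difference by 0.30 in females and 0.21 in males. The sham gap by which Igf1 was picked enters these values, so they are given without a test. Without replicate 3 of the male sham ACC the male sham difference was −0.45.

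Igf1r (ENSMUSG00000005533, chr7:67952827-68233668, plus strand) read 108, 113 and 113 CPM in the female SNI mPFC and 99.2, 102 and 101 CPM in the female SNI ACC. These pools did not overlap and differed by 0.14 (SE 0.04, edgeR FDR 0.0319). The call was lost without replicate 1 (0.13, edgeR FDR 0.155) or replicate 3 (0.14, edgeR FDR 0.109) of the female SNI ACC. In males the values were 102, 104 and 103 CPM and 105, 102 and 111 CPM, which overlapped, at −0.05 (edgeR FDR 0.58). The sham differences were 0.13 in females and 0.10 in males.

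Insr (ENSMUSG00000005534, chr8:3122061-3279617, minus strand) differed between the regions after SNI by 0.02 in females (interval −0.09 to 0.14) and −0.05 in males (interval −0.19 to 0.08). Grb14 (ENSMUSG00000026888, chr2:64912476-65024987, minus strand) read 17.0, 15.4 and 16.3 CPM in the male SNI mPFC and 14.5, 13.6 and 14.9 CPM in the male SNI ACC, without overlap, at 0.18 (SE 0.08, edgeR FDR 0.146). In females Grb14 differed by 0.08 (edgeR FDR 0.497). Ide differed by −0.11 in females (edgeR FDR 0.333) and 0.01 in males (edgeR FDR 0.939), and its sham difference was −0.24 in females and −0.05 in males.

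**Figure D5:**
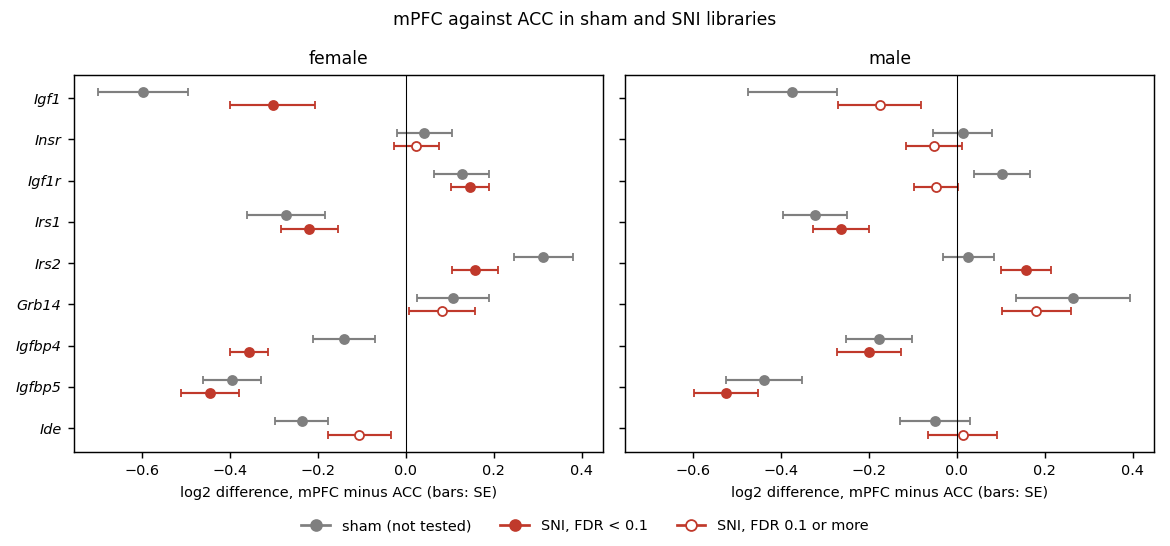
Log2 difference of the mPFC minus the ACC for each gene in females and males, with bars for the SE, grey points for sham (not tested) and red points for SNI (filled where FDR < 0.1, open otherwise). Igfbp5 lies furthest left after SNI, at −0.44 in females and −0.52 in males, and Irs1 and Irs2 lie on opposite sides of 0.

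Oligodendrocyte markers moved with the regions after SNI. In both sexes 9 of 10 were called lower in the mPFC, and their summed level was 1129 to 2831 CPM in the mPFC and 3093 to 4098 CPM in the ACC of females, and 2034 to 2945 and 2765 to 4077 CPM in males. In sham libraries the sums overlapped, at 3007 to 3460 and 2592 to 4012 CPM in females and 3421 to 3936 and 3038 to 4263 CPM in males. The lowest sum was in replicate 1 of the female SNI mPFC. Replicates 2 and 3, at 2831 and 2582 CPM, were also below every female SNI ACC library. Without replicate 1 of the female SNI mPFC all 6 female calls were kept. Igfbp5 was then at −0.40, Igfbp4 at −0.35, Igf1 at −0.37, Irs1 at −0.20, Irs2 at 0.17 and Igf1r at 0.17. Over all tested genes 27.6% were called between the regions in females and 21% in males, and several of the counts below are near these shares. Astrocyte markers were called lower in the mPFC for 4 of 7 in females and 5 of 7 in males, and endothelial markers for 2 of 7 and 6 of 7. Mural markers were called lower for 1 of 7 in females and 6 of 7 in males. Inhibitory neuron markers were called lower for 4 of 6 and 3 of 6, and 1 was called higher in males. Meningeal fibroblast markers were called higher for 2 of 8 in females and lower for 5 of 8 in males. Striatal neuron markers were called higher for 3 of 5 in females, and 2 were higher and 1 lower in males. Of 5 excitatory neuron markers 2 were higher and 1 lower in females, and 0 were called in males. Of 5 oligodendrocyte precursor markers 2 were higher and 1 lower in females, and 1 was lower in males. In females 1 of 8 microglia and 1 of 3 tested choroid plexus markers were higher, and 0 in males. No marker of these lists was at 0 in every library of a group. Their part in the regional differences was not tested.

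The wider pathway was followed in a list of 76 genes, 67 of them beside the members, of which 61 to 63 were tested in each comparison. SNI called 1 of 61 in the male mPFC and 0 of 62 in each of the other 3 groups. The gene was Igfbp6, which binds IGF2 more than IGF1, at 47.0 ± 2.88 CPM in SNI and 39.0 ± 1.52 CPM in sham pools (SD, n = 3; log2 difference 0.27, SE 0.06, edgeR FDR 0.0866). Its call was lost in 5 of 6 omissions and in 1 model over the 24 libraries (edgeR FDR 0.678). At an unadjusted p under 0.05 there were 8 genes of the list in the female mPFC, 5 in the female ACC, 14 in the male mPFC and 3 in the male ACC, beside the shares of all genes given for the members, 2039 of 16897, 1113 of 16684, 1903 of 16989 and 749 of 16702. DESeq2 called 0, 0, 2 and 0.

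Between the sexes after SNI, 19 of 62 were called in the ACC (10 higher and 9 lower in females, 30.6%, beside 23.5% of all genes) and 0 of 62 in the mPFC (edgeR), where 12 had an unadjusted p under 0.05, beside 2388 of 17098 genes, and DESeq2 called 4. In the PI3 kinase branch, Pik3ca, Pik3r1 and Pik3r3, subunits of PI3 kinase, and the kinase Pdpk1 were higher in females, by 0.14 to 0.24 on the log2 scale. The subunit Pik3r2 and the kinases Akt1 and Akt2 were lower, by 0.17 to 0.20.

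Nrdc and Mme, the proteases listed beside Ide, were also higher in females in the ACC. Mme, neprilysin, stood at 8.18 ± 0.248 against 6.45 ± 0.306 CPM (SD, n = 3; log2 difference 0.34, SE 0.10, edgeR FDR 0.0328), and Nrdc differed by 0.15 (SE 0.05, edgeR FDR 0.0522). The largest differences were Pappa2, a protease of IGF binding proteins, at 0.78 (edgeR FDR 0.072), the kinase Rps6kb1 at 0.35 (edgeR FDR 0.0252) and the adaptor Sh2b2 at −0.43 (edgeR FDR 0.0456). Shc2, another adaptor, was at −0.19 (edgeR FDR 0.0391) and Pik3r2 at −0.20 (edgeR FDR 0.0211).

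Between the regions after SNI, 25 of 63 were called in females (9 higher and 16 lower in the mPFC, 39.7%) and 19 of 62 in males (5 higher and 14 lower, 30.6%), beside 27.6% and 21% of all tested genes. The group of IGF binding proteins and their proteases, which also held Stc1 and Stc2, was mostly on the lower side. It had 7 lower and 1 higher of 9 in females and 4 lower of 9 in males. The lowest was Pappa, the protease that cuts IGFBP4, at −1.64 in females (0.204 ± 0.115 against 0.645 ± 0.172 CPM, SD, n = 3; edgeR FDR 0.0212) and −1.99 in males (0.144 ± 0.0682 against 0.600 ± 0.143 CPM; edgeR FDR 0.0102). These mPFC levels are close to the 3-read floor.

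In females Pappa2 (−0.81) and Stc1 (−0.79), whose product inhibits PAPP-A proteases, were the next lowest. The Pappa2 pools overlapped, and neither gene was called in males. In males the adaptor-like Grb7 (−0.82) and Stc2 (−0.70) came next, and both were also called lower in females (−0.76 and −0.64). At the other end were the transcription factor Foxo6, at 0.70 in females (edgeR FDR 0.00224) and 0.74 in males (edgeR FDR 0.000265), and the phosphatase Ptprf, at 0.51 and 0.45. Grb10, a relative of Grb14 that also inhibits the receptors, was at 0.34 in males and 0.43 in females (edgeR FDR 0.00246 and 0.000134). Sh2b2 was at 0.47 in females and was not called in males.

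The genes whose log2 CPM followed a member most closely over the 24 libraries were looked up as a description, since the libraries share sex, region and table. For Ide they were Eif2s3x (Pearson r 0.877), G530011O06Rik (0.845) and Gm21887 (0.842), all on the X chromosome, while Ide is on chromosome 19. For Irs2 they were Gse1 (0.897), Hivep3 (0.871) and Per2 (0.864). For Igf1 they were Vsnl1 (0.932), Acsl5 (0.927) and Rgs4 (0.925), and for Igfbp5 they were C1ql2 (0.928), Sparcl1 (0.926) and Ctnna1 (0.924).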

How the data were processed

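The authors deposited raw counts of reads per gene, whole numbers without normalization, in 1 table for each sex and region. The submitters' processing notes name Trimmomatic 0.36, Bowtie2 2.33, HISAT2 2.1.0, HTSeq 0.9.1, edgeR 3.34.0 and GRCm38. The annotation release and strand mode are not given in the sources used here. Ensembl identifiers, all 33364, were matched to GENCODE M21 for symbols, coordinates and exon lengths.

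Models held only the libraries of the groups compared and were fitted in edgeR 4.0.16 (R 4.3.3) with filterByExpr (minimum count 10, minimum total 15), TMM scaling, the legacy quasi-likelihood F-test and Benjamini-Hochberg adjustment over all genes tested, called at FDR < 0.1. CPM are TMM-scaled. Interactions and models with both sexes used 12 libraries. The steps were tested on simulated counts. Promoter windows are from RefSeq, GRCm38.p6, for 8 of the 9 members. Alternatives were DESeq2 1.42.0, RLE size factors, no filter, a minimum of 10 counts per library, the current quasi-likelihood method, 1 model over 24 libraries, a block for the replicate number, and omission of each library in turn.

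The members, the pathway list and the marker lists were chosen with earlier results of these data known. Pathway genes were named if called, or the 3 highest and 3 lowest where more than 6 were called. The PI3 kinase genes, Nrdc, and the female regional values of Grb7, Grb10 and Stc2 were named after their values were seen. For the genes most like a member, the 3 highest Pearson correlations of log2 CPM (prior count 2) were taken. Nrdc was matched through its synonym. One listed gene, Ins1, was not analysed here, and the values of another are not reported here.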

Additional observations from a re-analysis of the deposited data

How the results depend on the processing

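The calls for Ide and Irs2 between the sexes after SNI in the ACC, for Igfbp5 in both sexes, Igfbp4 in females and Irs1 in males between the regions held under every alternative, and no value with a call changed sign. With no filter on low counts 1 member was called for SNI in the female ACC (Ide, −0.18, FDR 0.0131), 1 in the male mPFC (Igfbp5, −0.19, FDR 0.0259) and 3 between the sexes after SNI in the mPFC (Ide, Irs2 and Igfbp4), where DESeq2 also called 3. Igf1r between the regions in females was lost with no filter (FDR 0.102). Leaving out each library in turn gave 0 to 1 members called for SNI in the female mPFC, 0 to 1 between the sexes after SNI in the mPFC and 2 to 3 in the ACC. It gave 3 to 6 between the regions in females and 2 to 4 in males, and 0 to 2 for the interactions of SNI with sex in the mPFC and with region in females. These interactions hold the sham libraries that served to pick members. So do the comparisons of SNI with sham, and the calls of Ide and Igfbp5 there are not independent of the choice.

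The labels do not say whether same-numbered libraries hold the same animals. The correlations of their deviations from group means were not all above 0.1 for any set of groups, so the number was not taken as a pairing. With the replicate number as a block 1 member was called for SNI in the male mPFC (Igfbp5, −0.19, edgeR FDR 0.0211), where the count over all genes went from 84 to 745 and of the pathway list from 1 to 6, and the counts of members called in the other comparisons stayed within 1.5 times. Counts over all genes moved more than those of the members. For SNI they ranged over the alternatives from 0 to 2758 in the female mPFC (641 with no filter, 13 in DESeq2), 0 to 398 in the female ACC, 0 to 745 in the male mPFC (596 with no filter, 196 in DESeq2, 0 in 1 model over 24 libraries) and 0 to 2305 in the male ACC. Between the sexes after SNI they ranged from 7 to 976 in the mPFC and from 1967 to 5693 in the ACC. Between the regions they ranged from 2878 to 5455 in females and from 2132 to 4469 in males. With no filter the model with both sexes called 539 genes in the mPFC and 40 in the ACC, and the interactions 883, 110, 672 and 128. Pathway counts ranged from 0 to 12 for SNI in the female mPFC, 0 to 3 in the female ACC, 0 to 6 in the male mPFC and 0 to 13 in the male ACC, and DESeq2 called 2 in the male mPFC. They ranged from 10 to 29 between the sexes in the ACC, 0 to 9 in the mPFC, and 12 to 26 between the regions in males. The causes were not tested. Every member had 204 reads or more in each library, and the 3 pools per group leave intervals as wide as those given.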
